A study of Homo sapiens with 4 samples.

Results

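The members described here are 555 open chromatin regions that sit in 80 dense clusters away from protein-coding gene ends in HCT116 cells. HCT116 is an established cell line from a human colorectal carcinoma. They were chosen by measured values, namely the called peak intervals of the 4 libraries. Overlapping intervals (1 bp or more) on chromosomes 1 to 22 and X merged to 122856 regions, and 39933 of these were present in all 4 libraries. Of those, 27306 lay more than 1000 bp from both ends of every RefSeq protein-coding gene and are called shared distal regions below. Neighbours separated by at most 12500 bp were linked into chains, and the members are the regions of the chains that held 6 or more. They make up 2.03% of the shared distal regions. Presence in all libraries and close spacing are therefore what the choice used, and are not results.

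Accessible chromatin was measured by ATAC-seq, where a transposase, Tn5, inserts sequencing adapters into exposed DNA. All cells were HCT116 that had been transduced with lentivirus and kept as stable lines under puromycin. The control group (2 libraries) carried the empty pSin vector and the FOXD2 group (2 libraries) carried pSin with the full FOXD2 coding sequence. FOXD2 is a forkhead transcription factor, and the comparison asks which open regions differ when it is supplied. The labels do not say whether a line was 1 clone or a pool, nor whether replicate libraries derive from separate cultures, so replicate spread may be only technical. The level of FOXD2 itself was not analysed here.

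Distal open regions are mostly enhancers, DNA elements where transcription factors bind and from which they act on promoters that may lie far away. Close runs of enhancers are often found near genes that define a cell type, and such runs have been called stretch enhancers or super-enhancers. Other elements also open chromatin away from protein-coding genes, among them the promoters of long noncoding RNAs (lncRNAs) and of transfer RNA (tRNA) genes, which RNA polymerase III transcribes.

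Several members held a whole RefSeq promoter window, which runs from 250 bases before to 50 bases after a transcript's start. There were 48 such distinct windows in 38 members, 31 of them of lncRNA genes and 17 at internal starts of protein-coding genes. Of these, 5 are printed here because they belong to the strongest of these members or hold a searched motif. Capitals mark TGTTTAC (forkhead, GTAAACA on the other strand), TGANTCA (AP-1, where N is any base) or GGAATG (TEAD), each searched on both strands together with CTTTGAT (TCF). The sequences are RefSeq's, on GRCh38.p14, and read 5′ to 3′ along the transcript's strand. In the chain at SLC39A11 the windows of LINC00673 (chr17:72592755-72593054, minus strand) and LINC00511 (chr17:72640423-72640722, minus strand) lay in members 1 and 8. In the chain over MALAT1 the windows of MALAT1 (chr11:65497488-65497787, plus strand) and ENEMAL (chr11:65477438-65477737, minus strand) lay in members 6 and 3. The window of LOC102723575 (chr11:59537152-59537451, plus strand) lay in member 1 of a chain of tRNA genes near OSBP.
LINC00673: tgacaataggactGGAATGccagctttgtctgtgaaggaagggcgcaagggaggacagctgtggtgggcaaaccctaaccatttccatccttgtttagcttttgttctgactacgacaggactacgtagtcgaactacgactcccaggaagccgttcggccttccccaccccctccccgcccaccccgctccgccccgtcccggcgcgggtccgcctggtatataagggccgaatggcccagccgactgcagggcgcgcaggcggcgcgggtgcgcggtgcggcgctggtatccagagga
LINC00511: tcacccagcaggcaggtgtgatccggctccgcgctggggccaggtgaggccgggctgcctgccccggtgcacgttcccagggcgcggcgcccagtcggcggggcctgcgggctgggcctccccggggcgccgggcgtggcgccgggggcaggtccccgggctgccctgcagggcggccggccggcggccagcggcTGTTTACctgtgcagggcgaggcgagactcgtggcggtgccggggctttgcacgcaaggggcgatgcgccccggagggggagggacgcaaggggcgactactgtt
MALAT1: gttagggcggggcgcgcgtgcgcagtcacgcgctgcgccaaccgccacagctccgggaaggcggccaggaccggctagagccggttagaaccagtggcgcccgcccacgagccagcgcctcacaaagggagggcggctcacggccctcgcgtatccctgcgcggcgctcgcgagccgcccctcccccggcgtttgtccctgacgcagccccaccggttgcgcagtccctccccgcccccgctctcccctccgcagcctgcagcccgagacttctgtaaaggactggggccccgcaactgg
ENEMAL: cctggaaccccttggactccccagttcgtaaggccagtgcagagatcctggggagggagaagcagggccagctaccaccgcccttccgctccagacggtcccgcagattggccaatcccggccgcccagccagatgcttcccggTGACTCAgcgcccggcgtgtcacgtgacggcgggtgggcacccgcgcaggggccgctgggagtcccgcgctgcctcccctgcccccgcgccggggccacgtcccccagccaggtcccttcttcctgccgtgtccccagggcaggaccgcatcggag
LOC102723575: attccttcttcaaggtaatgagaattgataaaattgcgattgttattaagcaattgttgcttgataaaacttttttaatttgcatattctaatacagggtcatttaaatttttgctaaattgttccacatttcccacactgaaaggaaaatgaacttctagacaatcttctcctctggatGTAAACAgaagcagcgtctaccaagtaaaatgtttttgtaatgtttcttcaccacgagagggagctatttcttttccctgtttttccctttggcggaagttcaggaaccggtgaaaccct

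The forkhead letters TGTTTAC were in 5 of the 48 windows (10.4%) and in 3.42% of all 34789 distinct RefSeq windows. The hits were the window of LINC00511, the overlapping window of LOC105371887 on the opposite strand, 2 overlapping windows of LOC102723575, and an internal start of GSN, which encodes the actin-severing protein gelsolin. They therefore mark 3 separate places. AP-1 letters were in 2 windows (4.17%, against 7.69% of all), TEAD letters in 5 (10.4%, against 14.1%) and TCF letters in 0 (against 2.64%). A match describes letters in the window and does not show a bound site.

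Strength is given by the authors' −log10 q of the strongest peak summit of a region in each library. A larger −log10 q means stronger statistical evidence for a summit above its local background, and not always a larger ratio to it. Its median over the members was 24.3 and 22.5 in the controls, 20.3 in FOXD2 replicate 1 and 16.1 in FOXD2 replicate 2, so raw values run lower in the FOXD2 libraries in general. Each region was therefore also ranked from 0 to 100 by −log10 q among the 27306 shared distal regions of its own library, and libraries are compared by these ranks. Values run in the order control replicate 1, control replicate 2, FOXD2 replicate 1, FOXD2 replicate 2. The member at LINC00673 had −log10 q of 89.6, 106.4, 105.5 and 60.9. The member at LINC00511, another lncRNA, had 87.9, 36.6, 46.6 and 63.1. By rank the groups overlapped at both members (98.6, 99.7, 99.8 and 98.9, and 98.4, 80.7, 92.2 and 99.0). The member at the start of MALAT1, an abundant nuclear lncRNA, had 86.8, 52.4, 72.4 and 41.8, and the member at ENEMAL had 47.6, 42.4, 62.1 and 43.3. By rank the groups overlapped at MALAT1 (98.4, 92.3, 98.4 and 95.0), while ENEMAL was higher in both FOXD2 libraries (88.5, 86.3, 97.0 and 95.5). The member with the forkhead letters at LOC102723575 had 12.5, 23.9, 10.5 and 10.4, and the one at the internal start of GSN had 14.8, 12.3, 8.51 and 16.7. By rank the groups overlapped at both (27.1, 60.2, 22.6 and 32.2, and 34.6, 28.3, 14.7 and 58.7).

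MicroRNAs were present in 9 chains. The chain at ZSWIM4 spans the MIR23A, MIR27A and MIR24-2 genes on chromosome 19, whose products are processed from 1 transcript. MIR193A lies inside member 6 of the chain at RAB11FIP4 on chromosome 17. Their mature sequences from RefSeq follow, with the seed (bases 2 to 8, which pair with targets) in capitals, because they lie within a chain of 11 and within a member. No RNA was measured.
miR-23a-3p: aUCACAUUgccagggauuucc
miR-27a-3p: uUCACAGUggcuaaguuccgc
miR-24-3p: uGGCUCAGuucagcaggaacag
miR-193a-3p: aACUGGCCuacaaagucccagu
miR-193a-5p: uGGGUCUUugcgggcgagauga
No seed was shared among these 5. The member that holds MIR193A had −log10 q of 42.5, 33.7, 27.0 and 26.7, and by rank (84.7, 77.3, 71.0 and 82.1) the groups overlapped. The MIR23A cluster lay in the gap between members 3 and 4 of its chain. Member 3 had 47.9, 52.7, 53.3 and 32.5, with overlapping groups. It was the strongest there except in FOXD2 replicate 2, where another member reached 32.6.

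Most chains only just met the size rule. There were 42 chains of 6 regions, 18 of 7, 12 of 8, 2 of 9, 3 of 10 and 3 of 11. Just outside the rule were 115 chains of 5, which hold 575 regions. A further 15892 shared distal regions stood alone. The spans of the 80 chains ran from 21312 to 71468 bp with a median of 38680.5 bp and came to 3.15 Mb in all. Members covered a median of 12.6% of their span (range 7.36 to 24.9%). The median gap between members was 5690 bp, and the nearest shared distal region outside a chain lay 12580 bp away, so the limit cut through a continuous range of spacings. The plot of chains by size shows this decline.

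**Figure D1:**
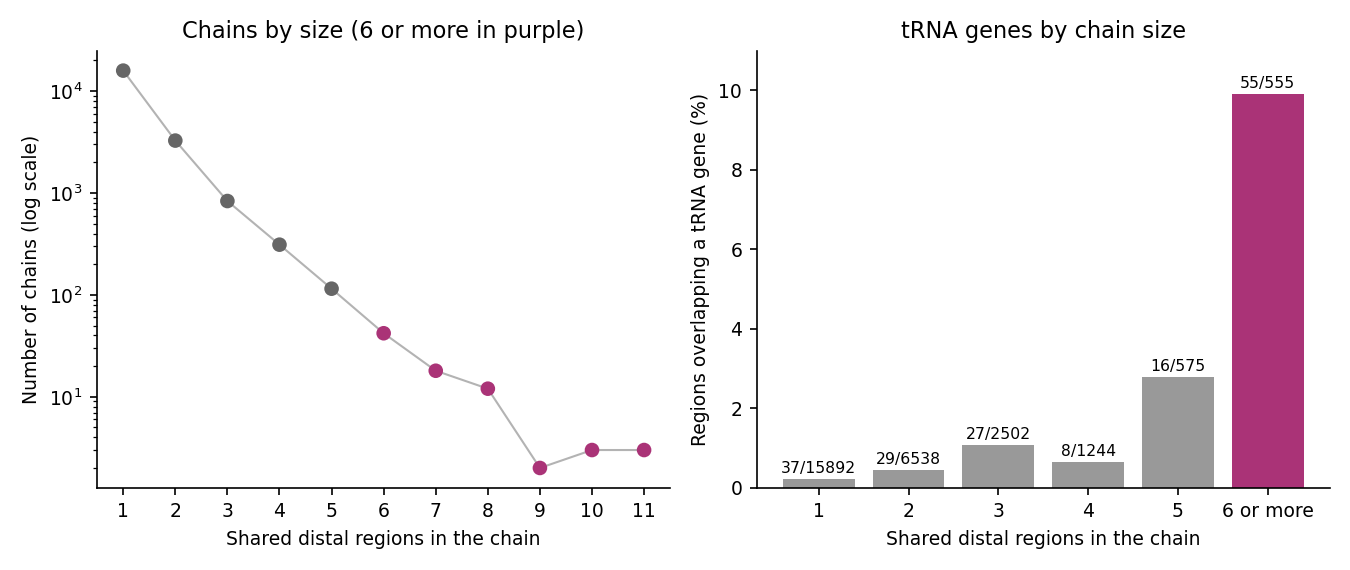
Left, number of chains (log scale) against the number of shared distal regions in the chain, with the 80 chains of 6 or more in purple. Right, percentage of shared distal regions that overlap a tRNA gene, by chain size, with the counts above the bars. The share rises from 0.233% of lone regions to 9.91% of the members.

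Members were about as wide as other shared distal regions, with medians of 648 and 628 bp. They lay inside a protein-coding gene in 241 of 555 cases (43.4%), against 49.6% of the other 26751. They overlapped a lncRNA gene in 18.9% of cases, against 18.7%. Chromosome 19, the most gene-dense human chromosome, held 14 chains with 101 members, which is 18.2% of the members against 4.77% of the shared distal regions. Chromosome 10 held 11 chains with 74 members (13.3% against 5.50%), and chromosomes 8, 10 and 17 together held 29.2% of the members against 16.6%. HCT116 is known to carry extra copies of parts of those 3 chromosomes. Copy number was not measured and its part in this was not tested. No chain was on chromosomes 4, 13, 18, 21 or X.

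tRNA genes were the feature in which the members differed most from the other shared distal regions among those compared. A tRNA gene was overlapped by 55 members (9.91%) and by 117 of the other shared distal regions (0.437%). The step did not lie at the size limit, since the share was 2.78% of the regions in chains of 5, 2.38% in chains of exactly 6, and 16.2% in chains of 7 or more (49 of 303). The members took in 60 of the 443 annotated tRNA genes, 40 of them among the 155 on chromosome 6. These genes encode tRNAs for many amino acids. Alanine, lysine and serine had 8 genes each in members, and proline and arginine 6 each. No member held any of the 29 cysteine, 22 asparagine or 13 tyrosine tRNA genes. Where tRNA genes are tandemly clustered, peaks at them meet the spacing rule through that clustering. tRNA genes also have near-identical copies, so reads may be shared among them, and the sources used here do not say how such reads were handled.

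The tRNA members were concentrated in 8 chains with at least 3 each, while 2 chains had 1 and 70 chains had 0. The largest lay at OR1F1, an olfactory receptor gene (chr16:3149430-3192119, hg38), where 10 of 11 members overlapped tRNA genes for arginine, lysine or proline. On chromosome 6 lay 6 of them, near the histone gene cluster and the major histocompatibility complex. In the 2 chains at chr6:27575745-27631672 and chr6:28789612-28823970, 8 of 8 members overlapped a tRNA gene. The eighth chain was on chromosome 11 near OSBP (5 of 7 members). The strongest member of all chains by mean rank was also at a tRNA gene, TRG-CCC5-1 for glycine on chromosome 1, with −log10 q of 132, 136, 84.6 and 85.2 in the 4 libraries.

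Among the tRNA members, lower ranks with FOXD2 outnumbered higher ones by −log10 q and by summit pileup. By fold the counts were near the shares of all shared distal regions. The median −log10 q rank of the 55 tRNA members was 68.9 and 72.6 in the controls, and with FOXD2 it was 62.9 and 57.4. Both FOXD2 ranks were below both control ranks in 19 of the 55 (34.5%) and above both in 4 (7.27%). Among all shared distal regions the same counts were 20.5% below and 19.6% above. By the number of tags at the summit (its pileup, recovered from the authors' fold and p) 26 (47.3%) ranked below and 3 (5.45%) above. All shared distal regions gave 21.3% and 20.8% by pileup. By the authors' fold over local background, however, 14 (25.5%) ranked below and 10 (18.2%) above, against 20.0% and 19.5% of all shared distal regions. The 117 other tRNA regions gave 43 below and 3 above by pileup, 32 and 13 by −log10 q, but 18 below and 31 above by fold, so the direction there depended on the measure. The local background at tRNA members was lower as well, with medians of 7.46 and 6.36 tags in the controls and 5.58 and 5.36 with FOXD2. Leaving out each library in turn gave 26 to 34 below and 6 to 13 above for the tRNA members. With 1 library left in a group, both counts rise by construction. Over all 555 members they rose from 134 to between 220 and 235 below, and from 100 to between 159 and 185 above. The shares over all shared distal regions were not computed for these settings, so nothing is concluded from these counts. These regions are not independent replicates, and with 2 libraries a group no test of the condition could reach p under 0.333.

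Single tRNA members show the spread behind these counts. In the chain at chr6:28789612-28823970, whose members overlap alanine and phenylalanine tRNA genes, the strongest was at TRA-AGC1-1. It had −log10 q of 69.0, 64.9, 35.6 and 26.1, lower in both FOXD2 libraries also by rank (96.1, 96.2, 83.8 and 81.2). The member at TRA-TGC7-1 had 42.0, 29.2, 17.2 and 9.87, again without overlap of the groups by rank (84.2, 70.5, 45.9 and 29.1). The member at TRF-GAA4-1 had 9.22, 5.26, 10.7 and 10.2, and ranked higher in both FOXD2 libraries (15.4, 3.5, 23.3 and 30.6). In the chain at OR1F1 the member at TRK-CTT4-1 and TRP-AGG1-1 had 29.2, 22.4, 5.15 and 4.86, and ranked lower with FOXD2 (68.9, 57.0, 3.4 and 4.3).

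For the 555 members as a whole, the FOXD2 and control libraries differed little. The median rank was 59.8, 57.3, 55.9 and 56.7. Both FOXD2 ranks were below both control ranks in 134 members (24.1%) and above both in 100 (18.0%), close to the 20.5% and 19.6% of all shared distal regions. Without the tRNA members the counts were 115 (23%) and 96 (19.2%) of 500.

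How strong the members were relative to lone regions depended on the measure. By summit pileup their median rank was 78.0, 77.5, 75.7 and 77.1, against 42.0, 42.5, 42.1 and 41.5 for lone regions. By fold it was 29.7, 27.7, 28.0 and 29.1, against 56.5, 56.3, 56.9 and 56.9. Fold is pileup over local background, and that background differed too. Its median was 8.96, 8.60, 8.84 and 7.86 tags at members and 2.88, 2.92, 3.26 and 3.10 at lone regions. Members had more tags both at the summit and around it. They were chosen for close neighbours, so more tags around them are not independent of the choice. Regions in chains of 5, just outside the rule, had median fold ranks of 31.9, 32.7, 30.8 and 29.8, near those of the members. The plot of ranks by class shows both orders in every library.

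**Figure D2:**
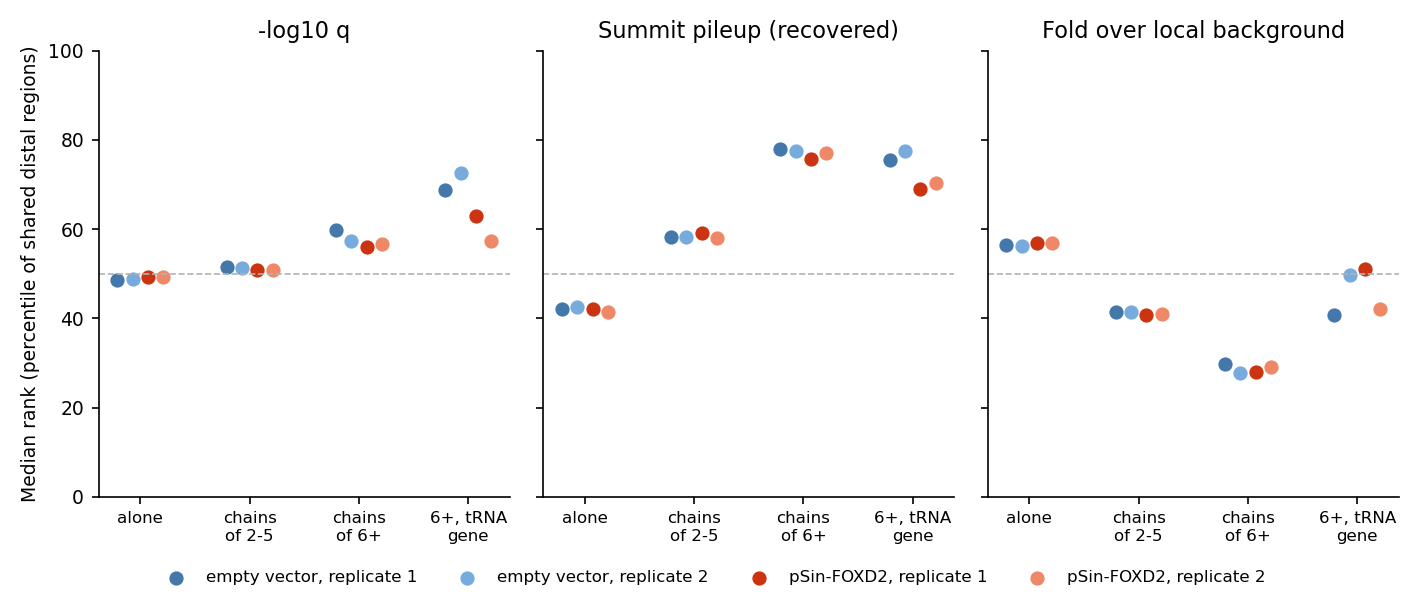
Median rank (percentile among the 27306 shared distal regions, dashed line at 50) of lone regions, of regions in chains of 2 to 5, of the 555 members and of the 55 members at tRNA genes, by −log10 q (left), summit pileup (middle) and fold over local background (right). Each point is 1 library. Members rank above lone regions by pileup and below them by fold in all 4 libraries.

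Within a chain the order of strength was only partly shared among libraries. The strongest member was the same in all 4 libraries in 36 of 80 chains (45.0%). The plot of −log10 q along 6 chains shows this at LMNA, which encodes the nuclear lamins A and C, and at KRT8, the epithelial keratin 8. In the LMNA chain (chr1:156090547-156146341, 10 members, 8 inside the gene) member 2 had 64.7, 67.2, 41.2 and 25.2, and member 4 had 31.7, 29.6, 38.1 and 33.5. By rank the first was lower (95.2, 96.7, 88.8 and 79.6) and the second higher (72.7, 71.3, 86.3 and 89.9) with FOXD2, without overlap. These 2 of the 10 members are examples and were not fixed beforehand. Among all shared distal regions 20.5% ranked below and 19.6% above in this way, so neighbours that differ in opposite directions are not particular to this chain.

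**Figure D3:**
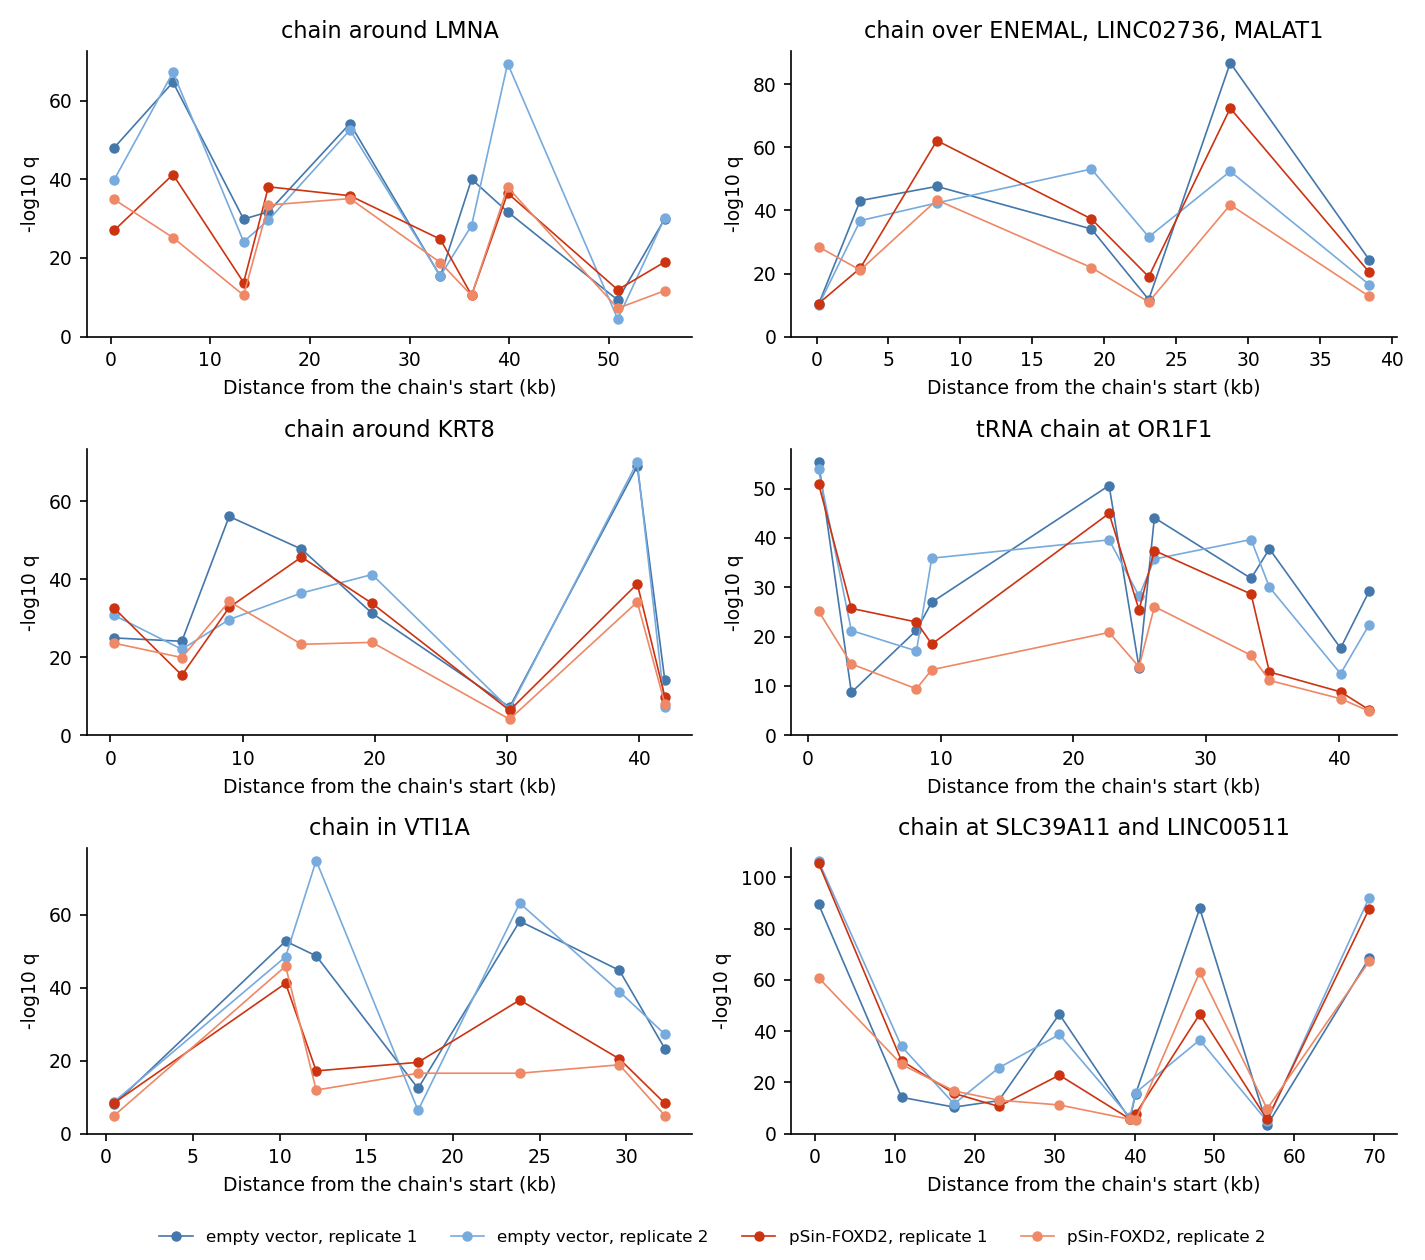
Authors' −log10 q of each member against its distance from the start of its chain in kb, for 6 chains, with 1 line per library. In none of these 6 chains is the strongest member the same in all 4 libraries. In the VTI1A chain members 2, 3, 5, 6 and 7 have lower raw values in both pSin-FOXD2 libraries. Of these, member 2 overlaps by rank.

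The genes of the chains were taken by position. Of the 80 spans, 52 overlapped the body of a protein-coding gene and 28 overlapped none. In all, 62 genes overlapped a span, 0.31% of the 19974 protein-coding genes, and 143 (0.716%) lay within 25 kb of one. All 4 libraries had a peak within 1000 bp of a gene end for 48 of the 62 (77.4%) and for 116 of the 143 (81.1%), against 65.6% of all protein-coding genes.

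The chains with the most members, after that at OR1F1, lay at the following genes. SHKBP1 and LTBP4, the latter a binding protein of latent TGF-beta, shared a chain of 11 on chromosome 19, and ZSWIM4 had another of 11. LMNA, SLC39A11 (a zinc transporter) and PLEC with PARP10 had chains of 10. The chain of SLC39A11 extended over LINC00673 and LINC00511, and its nearest protein-coding gene on the other side was SOX9, 465872 bp away, a transcription factor of intestinal crypts. CLDN4 with METTL27 had a chain of 9, as had the tRNA genes beside H4C8. Chains of 8 lay at MYADM, KRT8, PSD2, GSE1, DNAJB12, BCL9L (a coactivator of beta-catenin), GLIS2, and SUFU (an inhibitor of hedgehog signalling) with TRIM8, and between LY86 and RREB1. The remaining chains of 8 were the 3 of tRNA genes near ZNF184 and TRIM27.

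Chains of 7 overlapped GSDMC, MYOF, GNG7, VTI1A, SPTBN4, SEMA6B, IER2, SPMIP1 with KCP, DDA1 with ANO8 and GTPBP3, PROSER2, and SLC20A2. Others of 7 lay in intergenic stretches, among them the chain over ENEMAL, LINC02736 and MALAT1, those nearest to PTMA, DUSP5, ACTB and MAP1LC3B2, and the tRNA chains near OSBP and SCAND3. Chains of 6 overlapped ABTB2, SEPTIN9, HOOK2, CTBP2 (2 chains), GSN, DENND3, UQCC1, LIPE with CXCL17, RAB11FIP4, ID1, GNG7 (a second chain), MYO18A, PLEKHG5, STN1, TJP3, SLC38A10, C5AR1, HSPA12A, PHLDB2, TRPV2 with LRRC75A, LHPP, PACSIN2, SLC2A1 and TRIOBP. One more overlapped only LOC124905135. Intergenic chains of 6 were nearest to SMUG1, TRIB1, ZDHHC7, IRF2BPL, ADGRE5, KCMF1, KRT80, EIF1, AMPH, EPCAM, ATP5MJ, ELF3, LINGO1, DUSP4, LOC124903857 and, for the tRNA chain, H2BC13.

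The genes were then read against 20 gene lists. The lists hold 519 distinct genes, of which 6 had a body that overlapped a chain's span and 11 lay within 25 kb of one. Overlap with a span does not place a member inside the gene. CLDN4 and ID1 are too short to hold a shared distal region, so their chains surround them. Epithelial junction and identity genes had the most overlaps, 3 of 40, namely CLDN4 (a tight junction claudin), TJP3 (a tight junction scaffold) and KRT8. EPCAM, CLDN3 and ELF3 of that list also lay within 25 kb. The hemidesmosome, laminin and integrin list had PLEC, which ties keratin filaments to the hemidesmosome, 1 of 20. The AP-1 and immediate early list had IER2 overlapping a span, 1 of 28, and JUNB, an AP-1 subunit, within 25 kb. The TGF-beta and BMP list had ID1, a target of BMP signalling, 1 of 34. The ubiquitous control list had none of 18 overlapping a span and ACTB within 25 kb. The remaining 15 lists had 0, including WNT pathway and intestinal stem cell genes (38), endoderm and intestinal transcription factors (37), the YAP-TEAD pathway (27) and forkhead genes (31). Counts this small are read against 0.31% and 0.716% of all protein-coding genes, and being near a chain does not show that a gene is its target.

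The members near epithelial genes did not move together with FOXD2. In the chain upstream of EPCAM the member at the start of the divergent lncRNA EPCAM-DT had −log10 q of 77.7, 80.9, 18.4 and 35.6, and ranked lower in both FOXD2 libraries (97.4, 98.5, 49.9 and 91.5). Member 3 of that chain had 19.9, 13.9, 39.9 and 25.4, and ranked higher in both (49.1, 32.9, 87.8 and 80). At TJP3 the strongest member had 50.2, 46.1, 44.9 and 34.1, lower in both by raw value but slightly higher in both by rank (89.9, 89.0, 91.3 and 90.4). At CLDN4 the member strongest in all libraries but control replicate 1 had 54.2, 87.1, 53.7 and 57.3, with overlapping groups by rank too. Another member reached 69.7 in control replicate 1. At KRT8 member 7 inside the gene had 69.0, 70.0, 38.8 and 34.1, and ranked lower in both (96.1, 97.2, 86.8 and 90.5). The EPCAM-DT example was chosen after its values were seen. Of 8 epithelial marker genes, 8 had a gene-end peak in all 4 libraries, as had 0 of 6 defining leukocyte, 0 of 6 endothelial, 3 of 6 fibroblast and 3 of 6 neural markers. In the longer list of epithelial junction and identity genes the count was 36 of 40. In those of the other cell types the counts were 4 of 12 leukocyte, 2 of 11 endothelial, 3 of 10 fibroblast and 6 of 12 neural genes.

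Differences between the groups in the presence of a called peak were counted across the spans. Gained regions are those called in both FOXD2 libraries and in no control, and lost regions those called in both controls and in no FOXD2 library. The spans held 777 merged regions, of which 575 (74.0%) were in all 4 libraries. That share is raised by the choice of members, and was 32.5% among all merged regions. Gained regions numbered 9 (1.16%, against 3.89% of all merged regions) and lost regions 22 (2.83%, against 3.87%). Among the 202 regions of the spans that were not in all 4 libraries, 4.46% were gained (against 5.76%) and 10.9% lost (against 5.74%). The order of gained and lost counts over all regions of the spans turned without FOXD2 replicate 2. Leaving out a library leaves 1 in its group, so a call or its absence there rests on 1 library. Counts of both kinds then rise by construction. Without FOXD2 replicate 2, which had the shortest list (64675 intervals, against 72796 to 82739), there were 72 gained and 45 lost regions in the spans of 134 chains with 938 members. That was 5.75% and 3.59% of the regions in those spans, against 19.5% and 5.93% of all merged regions (22597 gained and 6868 lost). Without FOXD2 replicate 1 there were 40 gained (4.13%) and 49 lost (5.06%), against 12% and 10.3% of all regions. Without control replicate 1 there were 26 (2.80%) and 56 (6.02%), against 6.91% and 14.4%. Without control replicate 2 there were 23 (2.43%) and 64 (6.76%), against 6.18% and 17%. The excess of lost over gained regions without a control, and the reverse without FOXD2 replicate 2, was thus also present genome-wide. Without FOXD2 replicate 1 the orders differed, since all merged regions had more gained than lost ones (12822 and 10976). With the lists cut to equal length there were 7 gained (1.15%) and 16 lost (2.62%), against 4.32% and 3.86% of all regions. There too the order in the spans differed from that of all regions.

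The gained and lost regions were spread thinly. A gained region was in 8 chains, a lost one in 21, both in 1 and neither in 52. No chain had a difference of 3 or more. The chain of SUFU and TRIM8 had 2 gained regions, the first with −log10 q of 7.03 in FOXD2 replicate 1 and 8.94 in replicate 2, the second with 14.0 and 5.70. Both were inside a gene body. The other gained regions were 1 each in the chains at SHKBP1 with LTBP4, ZSWIM4, CLDN4 with METTL27, HOOK2 and UQCC1, and those nearest MAP1LC3B2 and LOC124903857. The gained region of the CLDN4 chain (chr7:73849343-73849803) was the strongest in 1 library, at 15.8 and 9.90. The chain of LHPP had 2 lost regions, with 10.7 and 4.72, and 8.90 and 7.88, in control replicates 1 and 2. The strongest lost region (chr1:16703130-16703430) had 16.8 and 27.3 and lay in the chain on chromosome 1 that also had a gained one. Just past the MALAT1 start a lost region (chr11:65498932-65499161) had 16.2 and 17.7. One lost region overlapped a tRNA gene, in the chain beside H4C8, with 11.1 and 11.9.

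The spans held 693, 715, 706 and 679 intervals of the 4 lists, a number that the choice of regions present in every list nearly fixes. They made up 0.891% and 0.982% of the control lists, and 0.853% and 1.05% of the FOXD2 lists. This share ran inversely to the length of the list and is given as a description. The means were 0.937% and 0.952%, a difference of 0.0148 percentage points that was within the spread of either group.

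Single chains, whose medians rest on few members, varied more than the members as a whole. By the median −log10 q rank of their members, 11 chains had both FOXD2 libraries above both controls and 24 had both below. The same count was not made for smaller chains, so these numbers are not read as an effect of FOXD2. Single shared distal regions gave 19.6% above and 20.5% below, but they are another unit than chain medians. The 5 chains with the widest gap in each direction are described here, without a test since they were picked for this difference. The plot of chain medians shows them away from the diagonal.

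**Figure D4:**
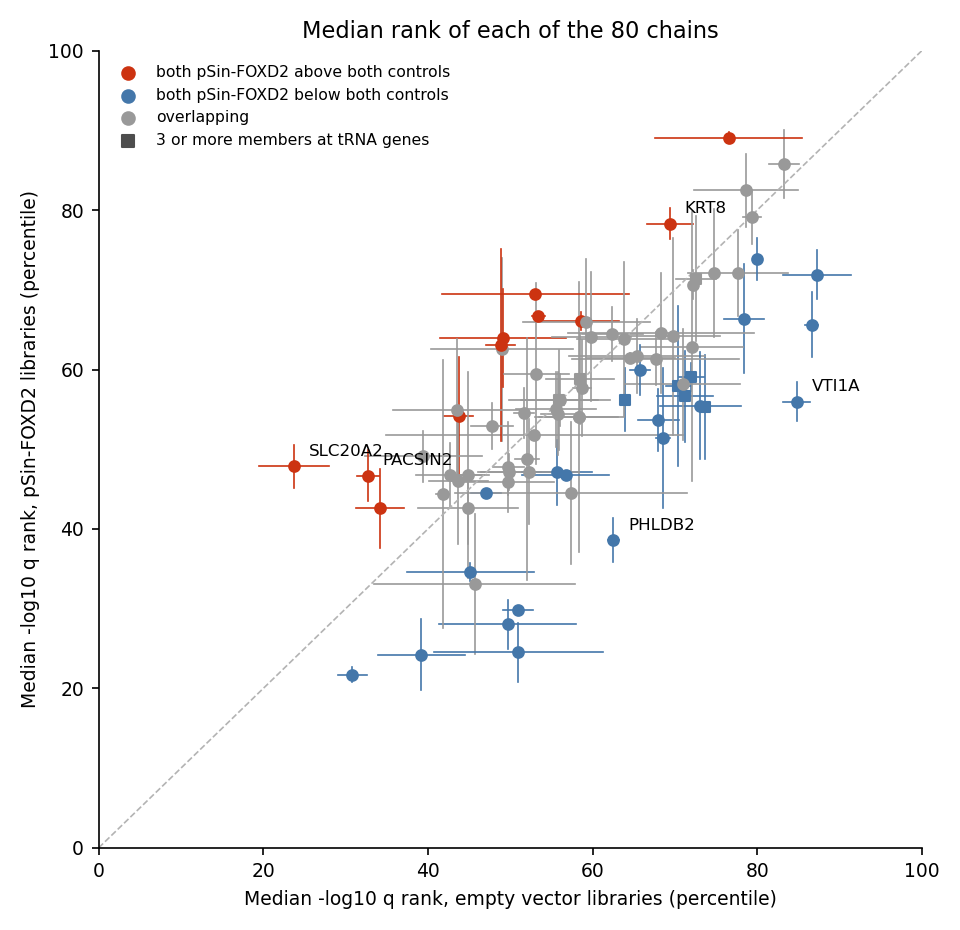
Median −log10 q rank (percentile) of the members of each of the 80 chains, with the mean of the 2 empty vector libraries on the x axis and the mean of the 2 pSin-FOXD2 libraries on the y axis. Lines span the 2 libraries of each group. Red chains (11) have both pSin-FOXD2 libraries above both controls, blue chains (24) below, and squares are the 8 tRNA chains.

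Higher with FOXD2 was, first, the chain inside SLC20A2, a phosphate transporter gene (chr8:42476624-42526347, 7 members). Its median rank was 19.4 and 28.0 in the controls and 50.5 and 45.2 with FOXD2. By pileup the ranks were 29.6, 23.6, 46.3 and 41.5, also without overlap, while by fold they overlapped (30.8, 40.5, 48.7 and 38.9). Its member 1 had −log10 q of 15.1, 8.65, 30.7 and 39.0, and member 2 had 14.8, 18.8, 7.75 and 6.61, so its members differed both ways, by rank as well. The chain near AMPH on chromosome 7 had 54.3, 52.6, 66.4 and 67.1, and stayed apart by pileup and fold. The chain inside PACSIN2, which encodes a membrane-bending protein, had 31.3, 34.1, 43.6 and 49.9, and also stayed apart by both. The chain near ADGRE5 had 64.4, 41.7, 69.3 and 69.7, with a wide spread in the controls. The chain at KRT8 had 66.6, 72.2, 80.2 and 76.4. By fold the KRT8 chain was lower with FOXD2 (52.0, 37.5, 24.8 and 34.8), and it held 1 lost region, so its direction depended on the measure.

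Lower with FOXD2 was, first, the chain inside VTI1A, which encodes a SNARE protein of vesicle fusion (chr10:112507294-112539709, 7 members). Its median rank was 86.5 and 83.2 in the controls and 53.5 and 58.5 with FOXD2. Member 5 there had −log10 q of 58.2, 63.1, 36.6 and 16.6, whereas member 4 had 12.4, 6.4, 19.6 and 16.6. By rank the first was lower (93.2, 95.8, 84.8 and 58.5) and the second higher with FOXD2 (26.9, 7.2, 53.5 and 58.5). The chain inside PHLDB2 had 61.9, 63.2, 35.8 and 41.4, and contained 1 lost region. The chain near LINGO1 had 52.8, 49.1, 30.2 and 29.4. The chain near ZDHHC7, an S-acyltransferase gene, had 87.4, 85.9, 61.6 and 69.7. The chain at PROSER2 had 40.7, 61.3, 20.8 and 28.2. By pileup all 5 were lower with FOXD2 without overlap. By fold, LINGO1 and ZDHHC7 were lower, PHLDB2 overlapped, PROSER2 was higher (17.6, 13.2, 18.5 and 21.5) and VTI1A was higher (54.9, 51.5, 70.3 and 70.2).

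The VTI1A chain stood apart in its local background. The median background of its 7 members was 7.76 and 8.58 tags in the controls and 2.82 and 3.00 with FOXD2, a ratio of 0.356. This was the furthest from 1 among the 80 chains. The next lowest was 0.652, at ID1, and the highest was 1.39, at SLC20A2. The summit pileup was lower as well, with medians of 76, 73, 32 and 29. Among 40 other shared distal regions within 1 Mb, the median background was 5.07, 5.30, 4.64 and 4.79. Outside the chain the background differed in both directions. Of the 37 other shared regions within 600 kb, 14 had both FOXD2 libraries below both controls and 18 had both above. These are raw tags of libraries of unknown depth. The share of such regions over all shared regions was not computed, so these counts do not single out this stretch. The nearest region before the chain, 16.8 kb away, was lower with FOXD2 (4.82, 5.82, 2.40 and 2.68). The region at 60.7 kb was lower by less (7.68, 7.72, 6.60 and 5.44). At 35.4 kb FOXD2 replicate 1 was only slightly below the controls (2.94, 3.12, 2.86 and 1.84). The 1.84 of FOXD2 replicate 2 recurs exactly at the region 619 kb from the chain's start. In FOXD2 replicate 1 a value of 1.84 is shared by member 1 and that region. Such values may be a lower limit of a list and not local, and the counts above include them. On the other side the nearest region, 124 kb from the chain's start, was higher with FOXD2 (2.28, 3.22, 4.52 and 4.96), and the one at 304 kb was lower (8.66, 9.38, 6.04 and 5.30). Copy number of this stretch was not measured. The chain was singled out after its values were seen, and the cause of the low background was not tested.

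**Figure D5:**
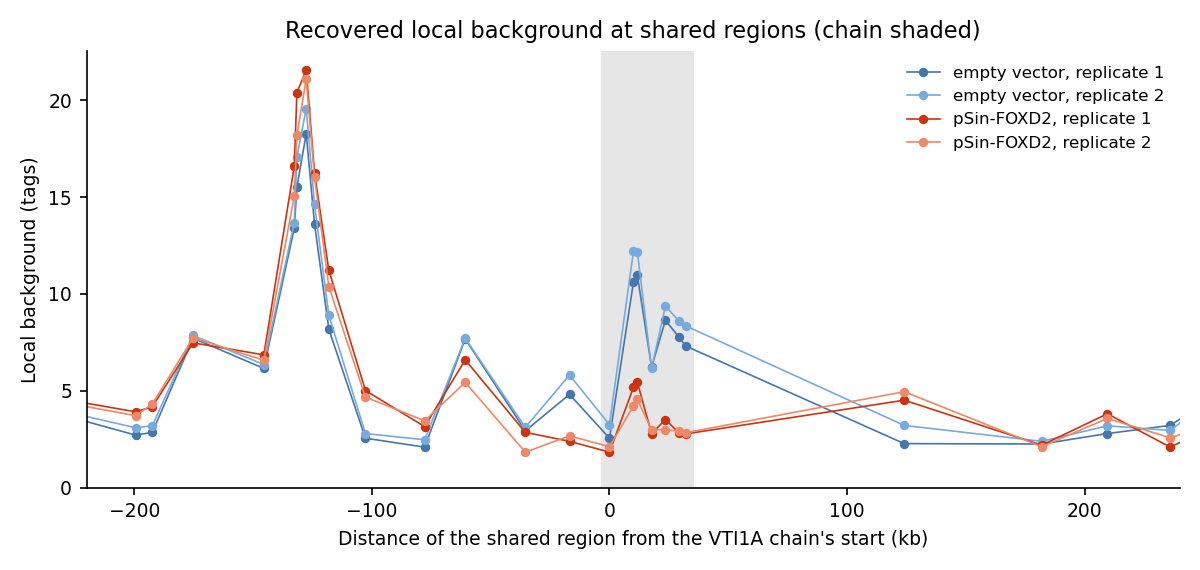
Local background in tags, recovered from the authors' fold and −log10 p, at each shared region around the VTI1A chain (grey), against its distance in kb from the chain's start, with 1 line per library. Both pSin-FOXD2 libraries lie below both empty vector libraries at all 7 members and at the region 16.8 kb before them, and above both at the region 124 kb after the start.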

How the data were processed

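Open chromatin was profiled by ATAC-seq in 2 control and 2 FOXD2 libraries of HCT116 cells. The build was hg38 and the tools were MACS2 2.2.7.1, Bowtie2 2.3.4.1, bedtools, Picard and cutadapt 3.4, per the submitters' processing notes. The role and settings of each tool, and any Tn5 shift of reads, are not stated in what was used here. The authors deposited 1 peak list per library. Each peak has the authors' fold over background at its summit (a ratio), their deposited −log10 p and q (−log10 scale), and a deposited score that was not used. These are values of single peaks. Raw values are printed for each library, and libraries were compared by ranks within a list. Read depth is unknown.

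Intervals were merged, filtered and linked as the report describes with Python 3.11.15, pandas 2.3.3 and scipy 1.17.1. Gene, tRNA and miRNA positions came from RefSeq tables of GRCh38.p14, the build of hg38, with 19974 protein-coding genes. They give no exons, so exon, intron and UTR are not stated. Summit pileup and local background were solved from fold, taken as pileup plus 1 over background plus 1, and the Poisson p. The p computed back from the solution differed from the authors' −log10 p by under 0.002 at 100% of the shared distal regions. The code was tested on simulated data.

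Named chains were the 20 with the most members and any with a difference of 3 or more gained and lost regions. Also named were the 5 with the widest gap between groups in each direction, and those whose span overlaps a listed gene. One gene that overlaps a chain is not reported here. The members and lists were chosen with earlier results of these data known. The planned exact permutation test of the share of list intervals in the spans is not used, because the choice of members nearly fixes that share. Regions are not replicates and carry no test. Alternatives were other gaps, chain sizes, end distances, peak thresholds, overlaps, list lengths and strength measures, and leaving out each library. The pileup measure, the counts of members by rank under other measures or without a library, and the background around VTI1A were added after seeing the data.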

Additional observations from a re-analysis of the deposited data

How the results depend on the processing

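The number of chains and members follows the rule's limits, and the effect of each limit is set by its construction. With a gap of 5 kb there were 4 chains, 27 members, 1 gained and 0 lost regions. With 25 kb there were 410 chains, 3198 members, 122 gained and 175 lost regions. From 4 regions a chain there were 506, 2374, 32 and 63, from 10 there were 6, 63, 2 and 1, and at over 5000 bp from gene ends there were 46, 309, 3 and 12. As shares of the regions in the spans, gained and lost regions were 3.03% and 0% at 5 kb, and 2.14% and 3.08% at 25 kb. They were 1.02% and 2.00% from 4 regions, 2.25% and 1.12% from 10, and 0.726% and 2.91% at over 5000 bp. All merged regions gave 3.89% and 3.87% in these settings. With peaks of −log10 q of 5 or more, gained regions fell to 3 (0.555%, against 3.74% of all merged regions). Lost regions were then 16 (2.96%, against 4.39%). Leaving out each library in turn gave 99 to 134 chains, 703 to 938 members, 23 to 72 gained and 45 to 64 lost regions. Gained regions exceeded lost ones with a gap of 5 kb, from 10 regions a chain, and without FOXD2 replicate 2. In the last setting a gained region needs a call in only 1 FOXD2 library. The difference in the share of list intervals turned negative with a gap of 25 kb (-0.0622), with lists of equal length (-0.0155), and ranged from -0.143 to 0.139 when a library was left out. In the 4 libraries this share runs inversely to list length. The replicate block gave the same difference, 0.0148, from paired differences of -0.0380 and 0.0677. Presence of a region depends on depth, which is unknown, so absence from a list does not show closed chromatin.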
